A study of Homo sapiens with 2 samples.

Results

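The genes described here are those of the matrix metalloproteinases (MMP), the membrane-anchored disintegrin metalloproteinases (ADAM), their secreted relatives with thrombospondin repeats (ADAMTS) and the tissue inhibitors of metalloproteinases (TIMP). They were chosen by gene symbol, as a family name followed by digits alone, with ADAM22 left out, which gave 63 of the 20985 genes in the table: 21 MMP, 19 ADAM, 19 ADAMTS and 4 TIMP genes. Polyadenylated RNA of 1 culture of HCC827 ZDR3, a gefitinib-resistant line, and of 1 culture of its parent HCC827, an established lung adenocarcinoma line with an activating EGFR mutation, was sequenced. Gefitinib inhibits the EGFR kinase. The resistant cells came from HCC827 kept in gefitinib that started at 10 nM and was raised 3-fold each month until they grew like the parent at 1 µM, after which 3 colonies were taken. The labels do not say whether the drug was present at harvest, and ZDR3 is a single derived line. The growth protocol they give is for protein isotope labelling, and whether the sequenced cultures were grown that way is not stated. There is 1 library per line, so nothing here could be checked against replicates or given a p-value, and each difference is one between these libraries alone.

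Metalloproteinases of these families are made as inactive precursors. MMPs and ADAMTS enzymes cut proteins of the extracellular matrix, ADAMs mostly release the outer parts of membrane proteins from the cell surface, and TIMPs block the active site of MMPs and of some ADAM and ADAMTS enzymes. ADAM10 and ADAM17 free the ligands of EGFR from their membrane-bound precursors, so they act upstream of the receptor that gefitinib inhibits.

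Levels are in normalised reads, where 1 unit stands for 138 reads in the resistant and 143 reads in the parental library. Gene reads summed to about 243549875 in the resistant and 257192599 in the parental library. Levels are not corrected for gene length, so levels of different genes are compared below only after division by exon length. The log2 ratio is resistant over parental with 1 unit added to both levels. Plain ratios are given with an exact 95% (Clopper-Pearson) interval, which covers counting error only. Genes whose level reached 1 in either library were called expressed, and 30 of the 63 members were, or 47.6% against 65.7% of all genes in the table. Of the 30, 21 reached this level in both libraries, 6 in the resistant library alone and 3 in the parental library alone. The last 2 sets had to differ between the libraries to be counted.

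The expressed members held differences in both directions. In RNA from a whole culture, a change in the share of cells that express a gene and a change in its RNA per cell cannot be told apart. Of the 30 expressed members, 11 were at least 2-fold higher in the resistant library, where 10.6% of all 13777 expressed genes were. Another 5 were at least 2-fold lower, where 9.68% of all expressed genes were. Past 2-fold either way were 16 of the 30, against 20.3% of expressed genes. Among the 21 members above the minimum in both libraries, 8 were higher and 3 lower, against 8.18% higher and 7.66% lower of the 12526 genes of that kind. By family, and among these 21 alone, 4 of 6 ADAMTS genes and both TIMP genes were at least 2-fold higher and none of either lower. Of 7 ADAM genes 1 was higher and 2 were lower, and of 6 MMP genes 1 was higher and 1 lower. The median log2 ratio of these genes was 1.44 for ADAMTS, 1.45 for TIMP, -0.27 for MMP and -0.65 for ADAM genes. The filter fixed the direction of the other 9: ADAMTS3, ADAMTS12, ADAMTS15, MMP1, MMP13 and MMP16 passed through the resistant library alone, and ADAM12, ADAM28 and MMP14 through the parental library alone. Over all 30 the median log2 ratio was 0.53, against -0.03 for all expressed genes, a value that rests on the low members, since it was -0.12 over the 21 members with a level of at least 5 in a library.

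**Figure D1:**
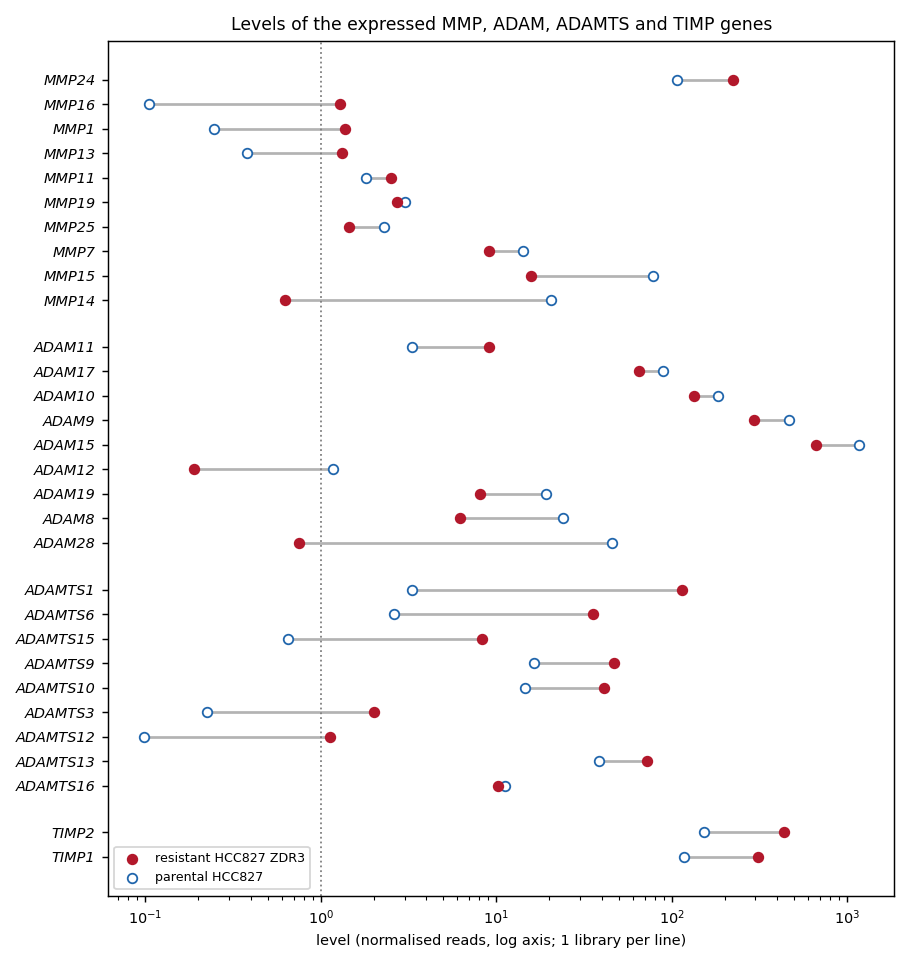
Level of each of the 30 expressed members in the resistant library (filled red) and the parental library (open blue), in normalised reads on a log axis, grouped by family and ordered by log2 ratio. ADAMTS1 had a level of 114 in the resistant library and 3.30 in the parental library, while MMP14 and ADAM28 lay below 1 (dotted line) in the resistant library.

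The largest increase among the members was in the ADAMTS family. ADAMTS1 (ENSG00000154734), which cuts the proteoglycans aggrecan and versican, had 15753 reads in the resistant library, a level of 114, and 471 reads in the parental library, a level of 3.30. Its log2 ratio was 4.75 and its plain ratio 34.7 (95% interval 31.7 to 38.1). Its direct neighbour in gene order on chromosome 21 is ADAMTS5, another aggrecan-cutting enzyme, and ADAMTS5 had 0 reads in both libraries. The median log2 ratio of the 35 expressed genes around ADAMTS1 was 0.30.

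Other proteoglycan-cutting ADAMTS genes went the same way or were barely detected. ADAMTS15 had 1142 reads in the resistant library and 93 in the parental library, levels of 8.30 and 0.651 (log2 ratio 2.49, plain ratio 12.7, interval 10.3 to 15.9). ADAMTS8, its direct neighbour on chromosome 11, had 118 reads in the resistant library and 33 in the parental library, which is below the minimum in both, with a plain ratio of 3.71 (2.51 to 5.64). The genes around this pair had a median log2 ratio of -0.19. ADAMTS9, which cuts versican and aggrecan, stood at 46.8 in the resistant and 16.5 in the parental library (1.45). ADAMTS4 had 21 reads in both. ADAMTS20 went the other way, with 0 reads in the resistant and 57 in the parental library, and was at least 18.3-fold lower against a floor of 3 reads in the resistant library.

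ADAMTS6, a member with few known substrates, stood at 35.4 in the resistant library and 2.62 in the parental library, a log2 ratio of 3.33 and a plain ratio of 13.5 (12.2 to 15.1). ADAMTS10, a relative of ADAMTS6 that is linked to fibrillin microfibrils, stood at 40.8 in the resistant and 14.6 in the parental library (1.42). Its 40 expressed neighbours on chromosome 19 had a median log2 ratio of 1.31, so ADAMTS10 exceeded its surroundings by 0.12. For ADAMTS6 the neighbours had a median of 0.43 and the excess was 2.91. ADAMTS13, which cuts von Willebrand factor, was at 72.1 in the resistant and 38.6 in the parental library (0.88). ADAMTS16 was at 10.2 and 11.2 in the resistant and parental libraries (-0.12).

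The procollagen-processing members were low and split. ADAMTS3 had 277 reads in the resistant and 32 in the parental library (log2 ratio 1.30), and its log2 ratio was 0.69 after the median of its neighbours was subtracted. ADAMTS2 had 94 reads in the resistant library and 1 in the parental library, a plain ratio of 97.6 with an interval of 17.1 to 3895. ADAMTS14 had 0 reads in the resistant library against 49 in the parental library, at least 15.7-fold lower. ADAMTS12, which cuts the cartilage matrix protein COMP, had 156 reads in the resistant and 14 in the parental library. Its log2 ratio of 0.96 lay just under the 2-fold line, while its plain ratio was 11.6 (6.69 to 21.7). The unit added to both levels damps such low genes.

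Both expressed inhibitors were higher. TIMP1, an inhibitor of many but not all MMPs, stood at 308 in the resistant library and 117 in the parental library (log2 ratio 1.39, plain ratio 2.64, interval 2.60 to 2.69). TIMP2, which blocks MMPs and also helps MMP14 to activate pro-MMP2, stood at 437 in the resistant and 153 in the parental library (1.51, plain ratio 2.86, interval 2.82 to 2.91). The genes around TIMP1 had a median log2 ratio of -0.08 and those around TIMP2 one of 0.41. TIMP3, the inhibitor that binds to matrix and acts on ADAM17, had 0 reads in both libraries. TIMP4 had 12 reads in the resistant and 44 in the parental library.

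By log2 ratio, the membrane-type enzymes, which sit at the cell surface, carried the largest differences among the expressed MMPs. These enzymes went in opposite directions. By plain ratio, the secreted MMP1, 5.61-fold higher, differed more than MMP15, which was 4.96-fold lower. MMP14 (MT1-MMP), a collagenase of the cell surface, had 86 reads in the resistant library against 2916 in the parental library, and was 32.7-fold lower (26.4 to 41.0). MMP15 (MT2-MMP) stood at 15.7 in the resistant and 77.7 in the parental library, a log2 ratio of -2.24. MMP24 (MT5-MMP), best known from the nervous system, stood at 224 in the resistant library and 107 in the parental library (1.07, plain ratio 2.10, interval 2.06 to 2.15). MMP16 (MT3-MMP) had 178 reads in the resistant and 15 in the parental library (1.05). MMP25, which is anchored by a lipid, stood at 1.45 in the resistant and 2.29 in the parental library (-0.43), and MMP17, also lipid-anchored, had 53 reads in the resistant and 41 in the parental library. Per kb of exon, MMP24 made up 92.3% of the summed level of the 6 membrane-type genes in the resistant library and 51.4% in the parental library. MMP14 and MMP15 together made up 6.70% in the resistant and 47.2% in the parental library. The setting for strand used in counting is not given in the sources used here. MMP24OS, on the opposite strand, overlaps 18.1% of MMP24 exon bases, and the antisense gene MMP25-AS1 overlaps 35.2% of those of MMP25, so reads of these pairs may not be told apart.

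The 5′ ends of a few of these genes are shown so that a reader can see what lies before genes that differ in opposite directions. They are RefSeq sequences of GRCh38.p14, 250 bases before to 50 after the start site, on the strand of the gene. Capitals mark the CRE element TGACGTCA in ADAMTS6, the AP-1 element TGANTCA in MMP7 and the E-box CACCTG, a motif that ZEB1 binds, in MMP15. Each motif was searched on both strands, in 37 of the 63 members that could be matched, and the 3 motifs did not overlap each other in the sequences printed. TIMP1 and MMP14 held no exact match to the 3 motifs in this window. Variants of the motifs were not searched. The TIMP1 window holds TGAGTAA, which is close to the AP-1 element but not a match to it.
ADAMTS6, chr5:65481871-65482170, minus strand: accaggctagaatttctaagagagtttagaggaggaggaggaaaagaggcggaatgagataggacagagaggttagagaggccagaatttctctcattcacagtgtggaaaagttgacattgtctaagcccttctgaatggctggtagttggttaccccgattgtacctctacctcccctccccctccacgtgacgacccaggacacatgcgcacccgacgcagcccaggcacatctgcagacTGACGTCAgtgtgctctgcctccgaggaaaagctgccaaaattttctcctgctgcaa
TIMP1, chrX:47582186-47582485, plus strand: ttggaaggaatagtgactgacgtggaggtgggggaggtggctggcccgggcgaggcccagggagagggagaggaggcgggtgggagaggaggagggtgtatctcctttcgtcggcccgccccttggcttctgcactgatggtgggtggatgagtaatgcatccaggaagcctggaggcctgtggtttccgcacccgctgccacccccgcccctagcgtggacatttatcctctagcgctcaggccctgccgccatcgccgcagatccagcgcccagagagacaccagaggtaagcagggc
MMP14, chr14:22836335-22836634, plus strand: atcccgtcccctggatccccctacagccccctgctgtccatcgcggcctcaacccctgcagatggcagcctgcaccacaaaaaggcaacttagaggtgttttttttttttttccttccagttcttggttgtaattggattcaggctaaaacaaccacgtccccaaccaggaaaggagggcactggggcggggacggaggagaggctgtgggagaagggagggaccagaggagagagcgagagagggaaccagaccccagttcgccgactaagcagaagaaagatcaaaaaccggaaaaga
MMP15, chr16:58025504-58025803, plus strand: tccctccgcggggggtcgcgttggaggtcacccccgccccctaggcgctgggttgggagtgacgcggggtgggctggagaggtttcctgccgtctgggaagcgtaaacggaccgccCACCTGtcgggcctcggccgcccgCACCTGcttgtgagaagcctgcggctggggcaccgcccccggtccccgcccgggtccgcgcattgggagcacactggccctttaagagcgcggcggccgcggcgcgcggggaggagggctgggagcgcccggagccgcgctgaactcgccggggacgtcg
MMP7, chr11:102530698-102530997, minus strand: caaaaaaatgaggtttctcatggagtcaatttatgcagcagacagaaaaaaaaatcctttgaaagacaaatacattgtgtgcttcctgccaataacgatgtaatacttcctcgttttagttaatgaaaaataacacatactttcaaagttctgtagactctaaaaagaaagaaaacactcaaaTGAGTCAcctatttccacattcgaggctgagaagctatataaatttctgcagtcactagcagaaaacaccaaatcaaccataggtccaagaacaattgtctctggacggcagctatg

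The series title names JUN, a subunit of AP-1, and MMP genes are textbook targets of AP-1. Members outside the 37 matched ones were not searched, so a member not named here need not lack a motif. The 37 members had 38 promoters, and the counts of members given here are the same by promoter. The AP-1 element was found in 4 of the 37 members, namely ADAMTS12, MMP7, MMP10 and MMP20, and in 7.71% of all 35116 promoters of the same length. Of these 4 genes only ADAMTS12 and MMP7 were expressed, and ADAMTS12 was higher as given above while MMP7 was lower. MMP10 had 5 reads in the resistant and 8 in the parental library, and MMP20 had 0 reads in the resistant and 6 in the parental library. These reads are too few to give a direction, and a part of AP-1 in any of these values was not tested. The CRE element, which begins 7 bases before the start site of ADAMTS6, was found in 1 of the 37 and in 1.85% of all promoters. The E-box was found in 9 of the 37, namely MMP15, ADAM8, ADAM17, ADAM19, ADAM21, ADAM29, ADAM30, ADAMTS17 and MMP26, and in 20.6% of all promoters. The first 4 were expressed and had lower values in the resistant library, as had 52.2% of all expressed genes. Of these, ADAM8, ADAM17 and ADAM19 are ADAM genes with a protease active site. All 6 genes of that kind above the minimum in both libraries had lower values. The motifs were chosen after the values were seen, and a part of the E-box in these values was not tested. ADAMTS17 had 12 reads in the resistant and 3 in the parental library, ADAM21 had 25 in the resistant and 21 in the parental library, and ADAM29, ADAM30 and MMP26 had 0 in both. A match describes the letters in this window and shows no binding.

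The secreted collagenases were low in both lines. MMP1, a collagenase, had 189 reads in the resistant library and 35 in the parental library (log2 ratio 0.93, plain ratio 5.61, interval 3.89 to 8.29). MMP13, another collagenase, had 181 reads in the resistant and 54 in the parental library (0.75, plain ratio 3.48, interval 2.55 to 4.81). MMP8, the neutrophil collagenase, had 7 reads in the resistant and 0 in the parental library. These genes lie on chromosome 11 in a run of 8 members that are next to each other among the genes of the table, in gene order MMP7, MMP20, MMP27, MMP8, MMP10, MMP1, MMP3 and MMP13. The run held both directions, and the medians of the genes around its members lay between 0.01 and 0.10. MMP7 (matrilysin), an epithelial enzyme, stood at 9.03 in the resistant and 14.3 in the parental library (-0.60). MMP3, a stromelysin, had 1 read in the resistant and 0 in the parental library.

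Of the gelatinases, which cut basement membrane collagen, MMP9 had 4 reads in the resistant library against 119 in the parental library. It was 28.7-fold lower with an interval of 10.9 to 107, and below the minimum level in both. The antisense gene SLC12A5-AS1 overlaps 18.4% of MMP9 exon bases. MMP2, the other gelatinase and the enzyme that MMP14 activates, had 9 reads in the resistant and 8 in the parental library. MMP11, a stromelysin-type enzyme, stood at 2.51 in the resistant and 1.81 in the parental library (0.32). CHCHD10, on the opposite strand, overlaps 4.21% of MMP11 exon bases and stood at 67.7 in the resistant and 67.2 in the parental library. MMP19 stood at 2.72 in the resistant and 3.02 in the parental library (-0.11). The interval of the plain ratio of MMP19, 0.783 to 1.04, included equal levels, and TMEM198B on the opposite strand overlaps 17.4% of its exon bases.

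**Figure D2:**
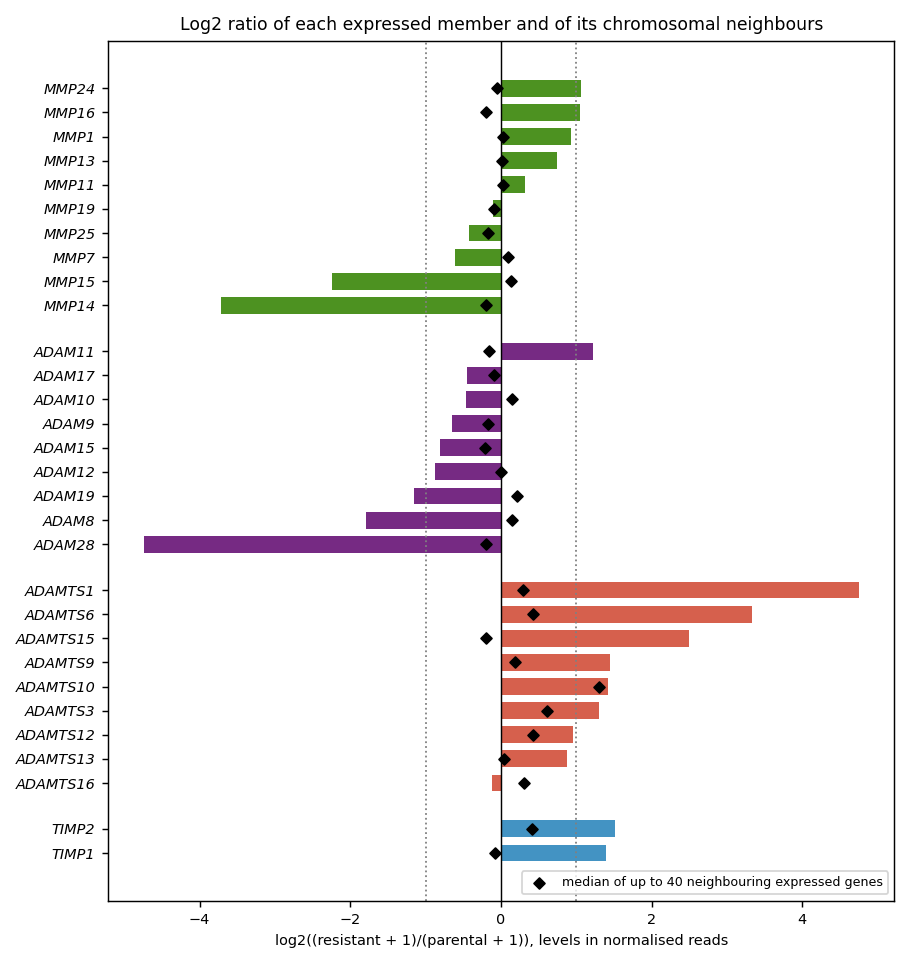
Log2 ratio, resistant over parental, of the 30 expressed members (bars, coloured by family) and the median log2 ratio of up to 20 expressed genes on each side of each member (black diamonds), with dotted lines at 2-fold. ADAMTS10 at 1.42 sits near its neighbours at 1.31, while the bars of ADAMTS1, ADAM28 and MMP14 lie far from their diamonds.

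Of the ADAM genes with a protease active site, 6 were above the minimum in both libraries, and all 6 had lower values in the resistant library, 2 of them at least 2-fold. A lower value of any size was found in 52.7% of all genes above the minimum in both libraries. ADAM28 and ADAM12 passed through the parental library alone and could be counted only as lower. ADAM28, a sheddase of epithelial and lymphoid cells, had 103 reads in the resistant library against 6539 in the parental library, a log2 ratio of -4.74, and was 61.1-fold lower (50.34 to 75.03). ADAM8, known from leukocytes, stood at 6.22 in the resistant and 23.9 in the parental library (-1.79). ADAM19, which can shed neuregulin, stood at 8.04 in the resistant and 19.1 in the parental library (-1.15). ADAM12, found in mesenchymal and tumour cells, had 26 reads in the resistant and 168 in the parental library. Its log2 ratio of -0.87 is damped by the added unit, and by plain ratio it was 6.22-fold lower (4.10 to 9.80). ADAM11, which lacks a working protease site and is best known from neurons, was the one ADAM gene above 2-fold in the other direction, at 9.05 in the resistant and 3.32 in the parental library (1.22).

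The abundant ADAM genes differed by less than 2-fold. ADAM15 stood at 661 in the resistant and 1161 in the parental library (log2 ratio -0.81), and ADAM9 at 295 in the resistant and 463 in the parental library (-0.65). ADAM10, the main sheddase of Notch receptors, EGF and betacellulin, was at 133 in the resistant and 184 in the parental library (-0.46). ADAM17, which sheds TNF, amphiregulin, epiregulin, HBEGF and TGFA, was at 65.4 in the resistant and 89.7 in the parental library (-0.45). The plain ratio was 0.726 for ADAM10 (0.713 to 0.740) and 0.730 for ADAM17 (0.710 to 0.750). IAH1, on the opposite strand, overlaps 12.3% of ADAM17 exon bases and stood at 181 in the resistant and 120.0 in the parental library. These 4 genes made up 97.3% of the summed level per kb of the ADAM genes in the resistant library and 95.2% in the parental library.

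The other 33 members were below the minimum in both libraries, and 10 of these had 0 reads in both: ADAM2, ADAM18, ADAM23, ADAM29, ADAM30, ADAM33, ADAMTS5, MMP26, MMP27 and TIMP3. At these depths 0 reads allows up to 3 reads by counting error. MMP9, ADAMTS8, ADAMTS14 and ADAMTS20 have been described, and the remaining 19 had at most 94 reads in the resistant and 44 in the parental library. Several of the silent ADAM genes, such as ADAM2, ADAM18, ADAM29 and ADAM30, are known from testis.

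Divided by exon length, the inhibitors led in the resistant library. There TIMP1 stood highest of the 62 members with a length, at 200.1 per kb, followed by ADAM15 at 100.4, TIMP2 at 77.6, MMP24 at 50.8 and ADAM9 at 42.6. In the parental library ADAM15 led with 176 per kb, before TIMP1 at 75.7, ADAM9 at 66.9, TIMP2 at 27.1 and MMP24 at 24.1. ADAMTS1 was in place 6 in the resistant library, at 16.2 per kb, and in place 21 in the parental library, at 0.467. By longest transcript in place of all exons, ADAM9 passed TIMP1 in the parental library, at 121 against 107 per kb, and MMP24 in the resistant library, at 76.8 against 50.8 per kb. The TIMP genes held 50.6% of the summed per-length level of all members in the resistant library against 23.0% in the parental library. The ADAM genes held 29.5% in the resistant and 61.7% in the parental library, the MMP genes 11.2% in the resistant and 12.2% in the parental library, and the ADAMTS genes 8.82% in the resistant and 3.11% in the parental library. These are shares of RNA and not of protein or activity.

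**Figure D3:**
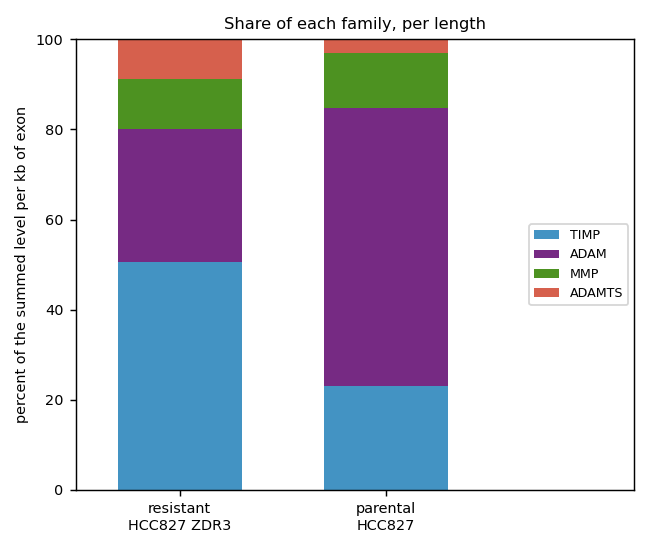
Share of the summed level per kb of exon that each family held in the resistant (left) and the parental (right) library, in percent. The TIMP share was 50.6% in the resistant and 23.0% in the parental library, and the ADAM share was 29.5% in the resistant and 61.7% in the parental library.

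Genes that regulate these enzymes were described from lists chosen for their known roles, but with earlier results of these data known. The counts in these lists, and in those of relatives, substrates and markers below, are therefore description only. All 9 partners of ADAM10 and ADAM17 were expressed, with 3 at least 2-fold higher and 1 lower, against 10.6% and 9.68% of all expressed genes. RHBDF2 (iRhom2), which carries ADAM17 to the cell surface, stood at 244 in the resistant and 83.9 in the parental library (log2 ratio 1.53), whereas its relative RHBDF1 was at 29.5 in the resistant and 53.2 in the parental library (-0.83). TSPAN15, a tetraspanin that directs ADAM10 towards cadherins, was at 14.8 in the resistant and 69.0 in the parental library (-2.15). In contrast, TSPAN33, another tetraspanin partner of ADAM10, was at 13.9 in the resistant and 5.63 in the parental library (1.17). TSPAN10 (1.01) was the third partner past 2-fold upwards. TSPAN14 stood at 143 in the resistant and 161 in the parental library (-0.17). Both partner groups thus held members in either direction.

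Of the proprotein convertases, which remove the inhibitory prodomain, 5 of 7 were expressed and 1 was past 2-fold. Past 2-fold either way were 20.3% of all expressed genes. The convertase past 2-fold, PCSK5, passed the minimum through the resistant library alone. PCSK5 stood at 58.0 in the resistant library and 0.329 in the parental library (log2 ratio 5.47). FURIN, the main activator of membrane-type MMPs and ADAMs, was at 56.9 in the resistant and 78.3 in the parental library (-0.45). PCSK6 (0.38), PCSK7 (-0.62) and PCSK4 (-0.15) lay within 2-fold.

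The plasminogen system, which activates several pro-MMPs, had 8 expressed genes of the 10 read here, 2 at least 2-fold higher and 2 lower. Over all expressed genes 10.6% were at least 2-fold higher and 9.68% lower. SERPINF2 passed the minimum through the resistant library alone. The inhibitor gene SERPINF2 (alpha2-antiplasmin) was at 5.30 in the resistant and 0.945 in the parental library (log2 ratio 1.70). SERPINE2, which inhibits urokinase, had a log2 ratio of 3.81. The activator PLAT was at 8.17 in the resistant and 22.4 in the parental library (-1.35). The urokinase gene PLAU had a log2 ratio of -0.28 and its receptor gene PLAUR one of -0.51. The plasminogen-binding genes ANXA2 (-1.21) and S100A10 (-0.14) and the inhibitor gene SERPINI1 (0.03) made up the rest of the expressed set.

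Among 10 expressed other regulators, 2 were at least 2-fold higher and 1 lower, against 10.6% and 9.68% of all expressed genes. The lower gene, THBS2, passed the minimum through the parental library alone. SPOCK1 (testican-1), a matrix proteoglycan, was at 147 in the resistant and 7.69 in the parental library (log2 ratio 4.09). THBS1, which binds several of these proteases, had a log2 ratio of 5.04, and its relative THBS2 one of -2.48. RECK, a membrane-anchored MMP inhibitor, stood at 3.99 in the resistant and 3.14 in the parental library (0.27), and BSG, an inducer of MMPs, had a log2 ratio of 0.14. CAV1, the main protein of caveolae, was at 355 in the resistant and 198 in the parental library (0.84).

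Relatives outside the name pattern had 15 expressed genes of 20, with 7 at least 2-fold higher, 1 lower and a median of 0.99. Over all expressed genes 10.6% were at least 2-fold higher and 9.68% lower. MME, PAPPA, PAPPA2, ADAMTSL1 and ADAMTSL3 passed the minimum through the resistant library alone, so the filter fixed their direction. The median is the value of ADAMTSL1, so it rests in part on that filter. The membrane peptidase MME (neprilysin) stood at 53.7 in the resistant and 0.497 in the parental library (log2 ratio 5.19). PAPPA, which frees IGF from its binding proteins, stood at 12.2 in the resistant and 0.0770 in the parental library (3.61). The ADAMTS-like genes, which lack the protease domain, included ADAMTSL3 (3.24), ADAMTSL4 (2.41) and ADAMTSL5 (-1.23). TLL1, a procollagen C-proteinase, had a log2 ratio of 1.81.

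Substrate genes were split. Of 23 expressed matrix genes 6 were at least 2-fold higher and 9 lower, with a median of -0.12. Over all expressed genes 10.6% were at least 2-fold higher and 9.68% lower. VCAN, the versican that ADAMTS1, ADAMTS9 and ADAMTS15 cut, stood at 1008 in the resistant and 83.5 in the parental library (log2 ratio 3.58), whereas FN1 (fibronectin), which MMP14 cuts, stood at 506 in the resistant and 3420 in the parental library (-2.75). The collagen VI genes COL6A1 (3.10) and COL6A2 (3.89) had ratios opposite in sign to COL6A3 (-3.71). COL6A1 and COL6A2 lie on chromosome 21 among genes whose median log2 ratio was 1.81 for COL6A1 and 1.86 for COL6A2. Of 24 expressed membrane proteins that ADAMs shed, 6 were at least 2-fold higher and 7 lower, beside the same shares of all expressed genes. CDH2 passed the minimum through the resistant library alone, and COL6A3 and EGF through the parental library alone. NOTCH3, a Notch receptor, was at 3.85 in the resistant and 128 in the parental library (-4.73). The cadherins, both cut by ADAM10, had opposite signs, with CDH2 at 58.4 in the resistant and 0.672 in the parental library (5.15) and CDH1 at 146 in the resistant and 1271 in the parental library (-3.11). EPCAM had a log2 ratio of -3.06.

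**Figure D4:**
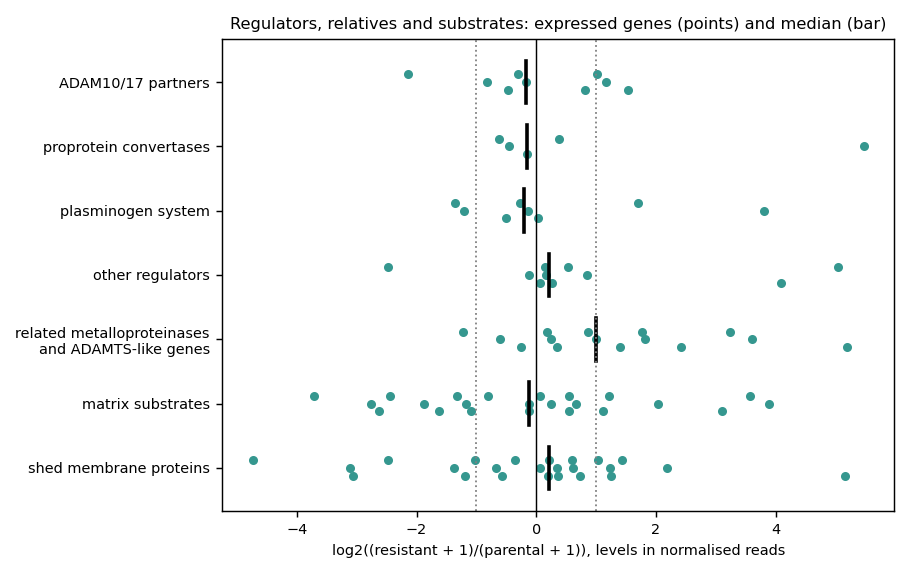
Log2 ratio, resistant over parental, of the expressed genes in each list of regulators, relatives and substrates (points), with the list median (black bar) and dotted lines at 2-fold. PCSK5 at 5.47 stands apart from the other convertases, and the matrix substrates reach from -3.71 to 3.89.

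Markers of the labelled cell type and of others were read beside these values. All 8 epithelial markers were expressed in both lines, with a summed level of 5807 in the resistant and 15816 in the parental library. Of these, 7 differed by 2-fold or more, all downwards, where 9.68% of all expressed genes were at least 2-fold lower. Of 6 lung and alveolar markers 4 were expressed, all 4 at least 2-fold lower, with a summed level of 26.97 in the resistant and 620.1 in the parental library. One of these, SLC34A2, passed the minimum through the parental library alone and could be counted only as lower. Among the lung and alveolar markers NKX2-1 stood at 9.33 in the resistant and 95.0 in the parental library, and SFTPC had 0 reads in both. Of 10 fibroblast markers 2 were expressed (COL1A1 and FBLN1), COL3A1 and POSTN had 0 reads in both, and the summed level was 84.1 in the resistant and 18.04 in the parental library. In the resistant library that sum was almost all FBLN1, at 82.1 in the resistant and 8.44 in the parental library, while COL1A1 was at 1.76 in the resistant and 9.15 in the parental library (log2 ratio -1.88). Of 10 leukocyte markers 4 were expressed, with a summed level of 322 in the resistant and 160.0 in the parental library that was almost all CD68, and CD3E had 0 reads in both. The other expressed leukocyte markers, CD14, CSF1R and LST1, passed the minimum through the parental library alone and could be counted only as lower. Of 7 endothelial markers found 3 were expressed, with a summed level of 11.9 in the resistant and 20.01 in the parental library. Of these, TIE1 passed the minimum through the resistant library alone and ROBO4 through the parental library alone. The part of these shifts in the values of the protease genes was not tested.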

How the data were processed

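Libraries of polyadenylated RNA, 1 per line, were read on an Illumina HiSeq system, as the labels' protocols state. Reads were handled with TopHat per the submitters' processing notes. Not given in the sources used here are the version, build, counter and strand setting. The authors deposited 1 log2 value per gene and library under a name that calls them RPKM. Back-transformed, the deposited log2 values with 1 to 100000 reads were all whole multiples (within 0.1 read) of 1 step per library, so they are reads times 1 factor and not divided by length. The lowest value stood at 0.9 reads and was taken as 0 reads. The column ending in Prim was read as the parental line.

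Levels were 2 to the deposited value, and log2 ratios used a pseudocount of 1. The design had assumed RPKM and was kept as written. Expression, counts and medians followed a minimum level of 1 and a 2-fold line, and count models were not used. The fold count and the interval were tested on simulated data with counting error alone, which is what the interval assumes. That test cannot show how either holds with spread between cultures or in the lowest genes. Exon length (all exons), gene order and overlaps came from GENCODE 29 by Ensembl identifier, which placed 97.8% of expressed genes and gave 62 of 63 members a length. Members and lists were chosen with earlier results of these data known. Named were all expressed members, members with at least 100 reads in a library or 0 reads against at least 30, and up to 4 expressed genes per list with the largest absolute log2 ratio (all for the convertases and the plasminogen system), plus further list genes (TSPAN14, RHBDF1, RECK, BSG, ADAMTSL5, TLL1, FN1) for their roles. Other members were named to complete a group, and ADAMTSL1, PAPPA2 and EGF because they passed the minimum through 1 library alone. A gene of the lists is not reported here. Motifs and the promoters printed were chosen after the values were seen. Python 3.11.15, numpy 2.4.6, scipy 1.17.1 and pandas 2.3.3 were used. Since reads carry no molecular identifiers, intervals treat copies made by PCR as independent and cover counting error only.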

Additional observations from a re-analysis of the deposited data

How the results depend on the processing

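Each of the 30 expressed members kept the sign of its log2 ratio under all 6 other settings tried for single genes, which were pseudocounts of 0.1 and 5, upper-quartile scaling, scaling to summed reads, the median of expressed genes set to 0 and the median of neighbouring genes subtracted. Across these, 9 genes crossed the 2-fold line at least once. A pseudocount of 0.1 put ADAM12 (-2.14), ADAMTS12 (2.64), MMP1 (2.09) and MMP13 (1.57) past it. A pseudocount of 5 put ADAM11 (0.75), ADAM19 (-0.89), ADAMTS3 (0.42) and MMP16 (0.30) short of it, scaling to summed reads put ADAMTS3 (0.93) and MMP16 (0.71) short of it, and subtracting the neighbours put ADAMTS3 (0.69) and ADAMTS10 (0.12) short of it. The count of members at least 2-fold higher lay between 8 and 14 and of those lower between 4 and 6 over the settings run. These settings covered from 21 to 63 members. Over all genes, the share higher lay between 6.54% and 12.4% and the share lower between 6.28% and 11.4%. With no minimum level, 17.5% of the 63 members were higher and 7.94% lower, against 6.97% and 6.35% of all genes. The median over members depends on which low genes enter. It was -0.12 with a minimum level of 5, 0.070 with a minimum of 0.1, 0 with no minimum, 0.67 and 0.19 with pseudocounts of 0.1 and 5, 0.57 with upper-quartile scaling and 0.20 with the neighbours subtracted. By longest transcript in place of all exons, a setting chosen after seeing the data, the TIMP share was 51.6% in the resistant and 22.8% in the parental library. No paired analysis was possible because each group held 1 library, and leaving out a library would leave no comparison.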
